A study of Mus musculus with 8 samples.

Results

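The genes described here encode laminin chains and the proteins that tie laminin into the basement membrane. They were chosen by name, with earlier results of these data known. They comprise 6 laminin chains (Lama2, Lama4, Lama5, Lamb1, Lamb2 and Lamc1), both nidogens (Nid1 and Nid2), perlecan (Hspg2) and agrin (Agrn), which make 10 of the 31053 genes in the count table. Brown adipose tissue (BAT) of 4 wild-type (WT) and 4 Ucp1Δ/Δ mice was profiled by bulk RNA-seq, and the comparison asks how loss of adipose triglyceride lipase in brown adipocytes alters the tissue. All mice were males on normal diet, given in the labels as strain C57BL6/J, and aged 10 weeks according to the labels and somewhat younger according to the legend of the study. In Ucp1Δ/Δ mice, labelled ATGLKO, a floxed Pnpla2 gene (Pnpla2 fl/fl), which encodes adipose triglyceride lipase, was deleted by a Cre recombinase under the Ucp1 promoter (Ucp1-Cre). These mice came from a cross of the lines B6N.129S-Pnpla2tm1Eek/J and B6.FVBTg(Ucp1-cre)1Evdr/J, kept on a C57BL6/J background. This promoter is active in thermogenic adipocytes, so other cells of the tissue kept the gene, and whether the WT mice carried floxed alleles or the Cre was not given in the sources used here.

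The libraries held between 2017697 and 3115956 counts per mouse, of which 38.4% to 45.6% came from mitochondrially encoded genes. Levels are given in CPM, the usual unit of counts relative to library size, with sizes scaled by the trimmed mean of M-values. After a filter on low counts, 8930 genes were tested by the quasi-likelihood method of edgeR, and p-values were adjusted over all of them by the Benjamini-Hochberg procedure. Pnpla2 was at 2837, 2701, 2961 and 3152 CPM in the WT and 514, 448, 403 and 530 CPM in the Ucp1Δ/Δ mice. The means of 2913 ± 191 and 474 ± 59.2 CPM (SD, n = 4 each) gave a log2 fold change (log2FC) of -2.62 (SE 0.17, adjusted p = 1.97e-07), so each library matched its label. The labels name the tissue as BAT and the cell type as stromal vascular fraction, yet the summed level of 8 brown adipocyte markers was 7458 to 18030 CPM in WT and 6193 to 10080 CPM in Ucp1Δ/Δ mice, and such levels go against a fraction freed of adipocytes. In such bulk samples, fewer cells of a type and less RNA per cell cannot be told apart.

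Basement membranes are thin sheets of matrix that lie against the surface of adipocytes, endothelial cells, muscle fibers and Schwann cells. Each laminin is a trimer of an α, a β and a γ chain, and trimers bound to receptors at the cell surface join into a network. Nidogens bridge this network to that of type IV collagen, whereas perlecan and agrin are large heparan sulfate proteoglycans that bind laminin and, through sugar chains, growth factors. In fat, every mature adipocyte is wrapped in such a sheet.

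Of the 10 genes, Nid1, Lama2 and Lamb2 rose in BAT of Ucp1Δ/Δ mice, by 4.56, 3.69 and 2.32 times. The other 5 genes that could be tested (Lamb1, Lamc1, Lama4, Hspg2 and Agrn) did not pass the test, with log2FC between -0.36 and 0.48, and Lama5 and Nid2 had too few counts to be tested. Thus 3 of the 8 tested genes (37.5%) were higher at an adjusted p under 0.05, whereas 13.3% of all tested genes were higher and 21.0% changed in either direction. Since the genes were chosen with earlier results known, this share is not that of a blind choice. None of the 8 was lower, also at an unadjusted p under 0.05 (0 genes) and in DESeq2, limma voom and limma trend (0 genes each), while 7.63% of all tested genes were lower. The median log2FC was 0.38 over the 8 genes and -0.0087 over all tested genes. Lama2 passed the filter through the Ucp1Δ/Δ mice alone, with 0 of 4 WT mice at or above the minimum of 4.22 CPM, so its presence among the tested genes itself depended on its being high there.

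**Figure D1:**
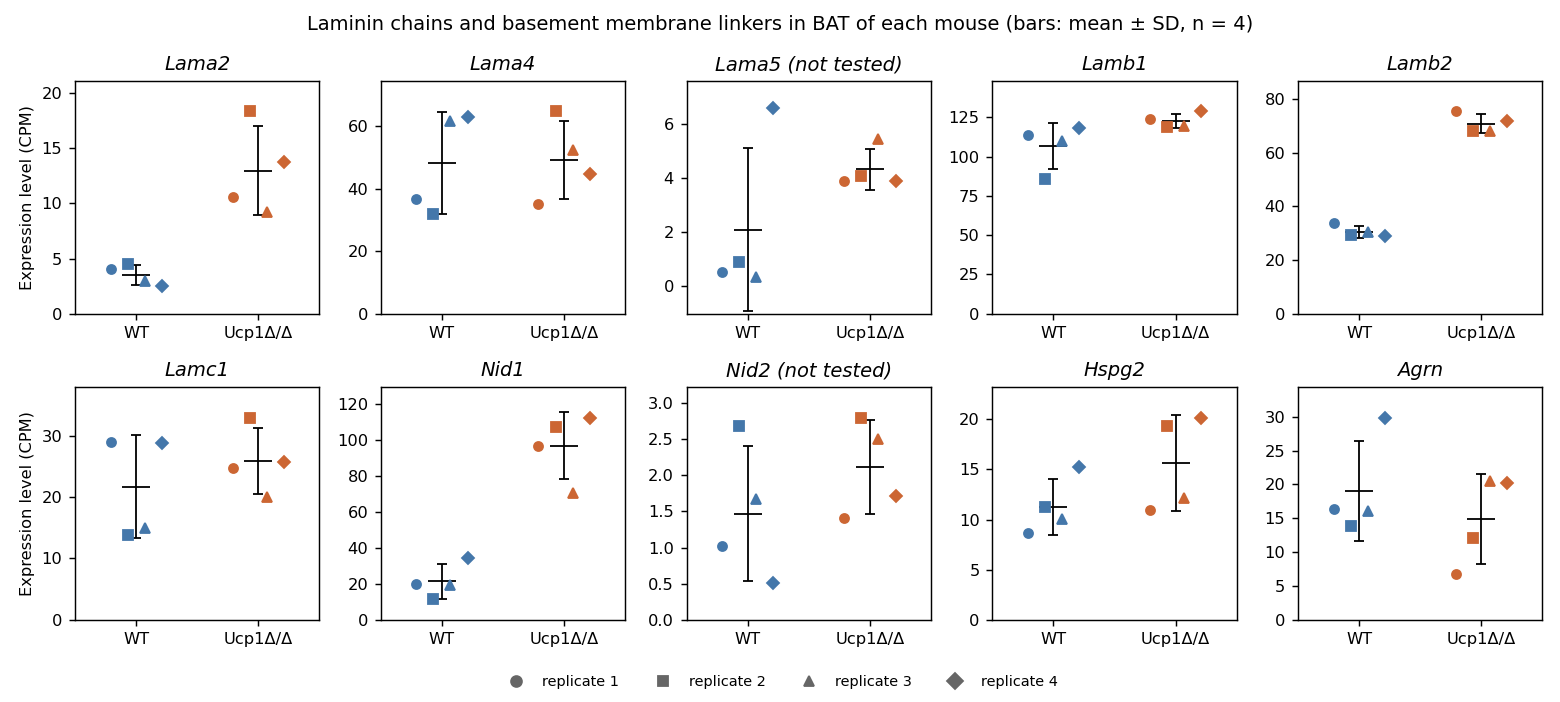
Level of each of the 10 genes in each mouse, in CPM on a linear axis of its own for each gene. Points are mice (4 WT, 4 Ucp1Δ/Δ), horizontal bars the means and vertical bars the SD. Nid1, Lama2 and Lamb2 are higher in every Ucp1Δ/Δ mouse than in any WT mouse, whereas the points of Lama4, Lamc1, Hspg2 and Agrn intermingle.

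Nidogen 1 (Nid1, ENSMUSG00000005397, mm10 chr13:13437551-13512269, plus strand), the main bridge between laminin and type IV collagen, had a log2FC above those of the other 7 tested genes, except without WT replicate 2, where it was 1.98 beside 2.01 for Lama2. Its level was 19.9, 11.7, 19.4 and 34.5 CPM in the WT mice and 96.6, 107, 70.6 and 113 CPM in the Ucp1Δ/Δ mice. The lowest Ucp1Δ/Δ mouse was well above the highest WT mouse, and WT replicate 4 was the highest of its group. The means of 21.3 ± 9.52 and 96.8 ± 18.6 CPM (SD, n = 4 each) gave a log2FC of 2.19 (SE 0.26, 95% interval 1.63 to 2.75, edgeR adjusted p = 2.68e-05). Its paralog nidogen 2 (Nid2, ENSMUSG00000021806, chr14:19751265-19811787, plus strand), which binds the same partners, was near the limit of counting. It had 2, 6, 5 and 1 counts in WT and 4, 9, 6 and 4 counts in Ucp1Δ/Δ mice, where 3 counts correspond to 0.963 to 1.49 CPM. The groups overlapped, and a difference in Nid2 was not detectable at this depth. Exons of Nid2 also overlap by 437 bases those of Rtraf on the opposite strand, which drew 1188 counts over all mice, so that without knowledge of the strand setting the few Nid2 counts are uncertain.

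Among the laminin α chains, which carry the receptor-binding end of the trimer, Lama2 moved. It encodes the α2 chain, the form of muscle and peripheral nerve basement membranes (ENSMUSG00000019899, chr10:26980036-27619758, minus strand). Its raw counts were 8, 10, 9 and 5 in the WT mice and 30, 59, 22 and 32 in the Ucp1Δ/Δ mice, or 3.52 ± 0.908 and 12.98 ± 4.06 CPM (SD, n = 4 each). All Ucp1Δ/Δ mice were above all WT mice, and Ucp1Δ/Δ replicate 2 was the highest, at 18.4 CPM against 9.19 to 13.7 CPM in the others. The log2FC was 1.88 (SE 0.32, 95% interval 1.20 to 2.57, edgeR adjusted p = 0.000596). The level of skeletal muscle markers differed strongly between mice within each genotype, and without the 4 mice in which it was highest (2 against 2 left) the log2FC of Lama2 was 1.44 with an adjusted p of 0.0617. With the muscle marker level as a covariate over all 8 mice it was 1.71 (adjusted p = 0.000618).

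The α4 chain, which is widely found in endothelial and adipocyte basement membranes, showed no detectable difference. Lama4 (ENSMUSG00000019846, chr10:38965515-39110188, plus strand) was at 36.7, 31.8, 61.8 and 62.8 CPM in WT and 35.03, 64.7, 52.2 and 44.6 CPM in Ucp1Δ/Δ mice. The groups overlapped, with a log2FC of 0.024 (SE 0.25, 95% interval -0.50 to 0.55, adjusted p = 0.961), and its sign turned with the scaling (-0.017 with the size factors of DESeq2). Lama5 (ENSMUSG00000015647, chr2:180176373-180225859, minus strand), the α5 chain of many mature epithelial and vascular basement membranes, had 1, 2, 1 and 13 counts in WT and 11, 13, 13 and 9 counts in Ucp1Δ/Δ mice. WT replicate 4 alone was at the level of the Ucp1Δ/Δ mice, and the gene did not pass the filter. When every gene with 1 count or more was tested, Lama5 had a log2FC of 1.11 (edgeR adjusted p = 0.15), and without the 4 mice richest in muscle markers, WT replicate 4 among them, 2.91 (adjusted p = 0.0229). The WT mice left in that fit had 2 and 1 counts and the Ucp1Δ/Δ mice 11 and 13. Lama5 thus passed the filter there through the Ucp1Δ/Δ mice alone, and its presence in that fit depended on its being high in them.

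The β chains differed from each other. Lamb2 (ENSMUSG00000052911, chr9:108479736-108490530, plus strand), the β2 chain known from the neuromuscular junction, kidney and vessel wall, was at 33.7, 29.1, 30.4 and 28.9 CPM in WT and 75.4, 68.1, 68.1 and 71.7 CPM in Ucp1Δ/Δ mice. The mice of each genotype lay close together and the groups were far apart, with means of 30.5 ± 2.20 and 70.8 ± 3.46 CPM (SD, n = 4 each) and a log2FC of 1.21 (SE 0.16, 95% interval 0.88 to 1.55, adjusted p = 5.3e-05). Lamb1 (ENSMUSG00000002900, chr12:31265234-31329644, plus strand), the broadly used β1 chain, was at 114, 85.6, 110 and 118.5 CPM in WT and 124, 118.6, 119.5 and 129 CPM in Ucp1Δ/Δ mice. Its groups touched without overlapping, and its log2FC of 0.20 (SE 0.16, 95% interval -0.15 to 0.54, adjusted p = 0.434) did not pass the test. In all, 4 of the 8 tested genes (Nid1, Lama2, Lamb2 and Lamb1) had every Ucp1Δ/Δ mouse above every WT mouse and 0 had every one below, against 14.4% and 9.37% of all tested genes. Lama2 was tested only through its level in the Ucp1Δ/Δ mice, and the genes were chosen with earlier results known. The count of 4 therefore depends in part on the filter and the choice.

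The γ1 chain, shared by most laminin trimers, did not pass the test. Lamc1 (ENSMUSG00000026478, chr1:153218922-153332786, minus strand) was at 29.1, 13.9, 15.03 and 28.9 CPM in WT and 24.8, 33.0, 20.1 and 25.7 CPM in Ucp1Δ/Δ mice. The WT mice spanned the range of most Ucp1Δ/Δ mice, with a log2FC of 0.28 (SE 0.26, 95% interval -0.28 to 0.84, adjusted p = 0.507). The upper bound leaves room for a rise, though it lies below the lower bound of Nid1, Lama2 and Lamb2.

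The proteoglycans did not pass the test either, with opposite signs. Perlecan (Hspg2, ENSMUSG00000028763, chr4:137468769-137570630, plus strand) was at 11.3 ± 2.81 CPM in WT and 15.6 ± 4.77 CPM in Ucp1Δ/Δ mice (SD, n = 4 each), with a log2FC of 0.48 (95% interval -0.09 to 1.05, adjusted p = 0.236). Agrin (Agrn, ENSMUSG00000041936, chr4:156165290-156197488, minus strand), best known for clustering acetylcholine receptors at the neuromuscular junction, was at 19.0 ± 7.32 and 14.9 ± 6.67 CPM, with a log2FC of -0.36 (95% interval -1.07 to 0.34, adjusted p = 0.491). Single mice set the edges of agrin, since WT replicate 4 was at 29.9 CPM and Ucp1Δ/Δ replicate 1 at 6.72 CPM.

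**Figure D2:**
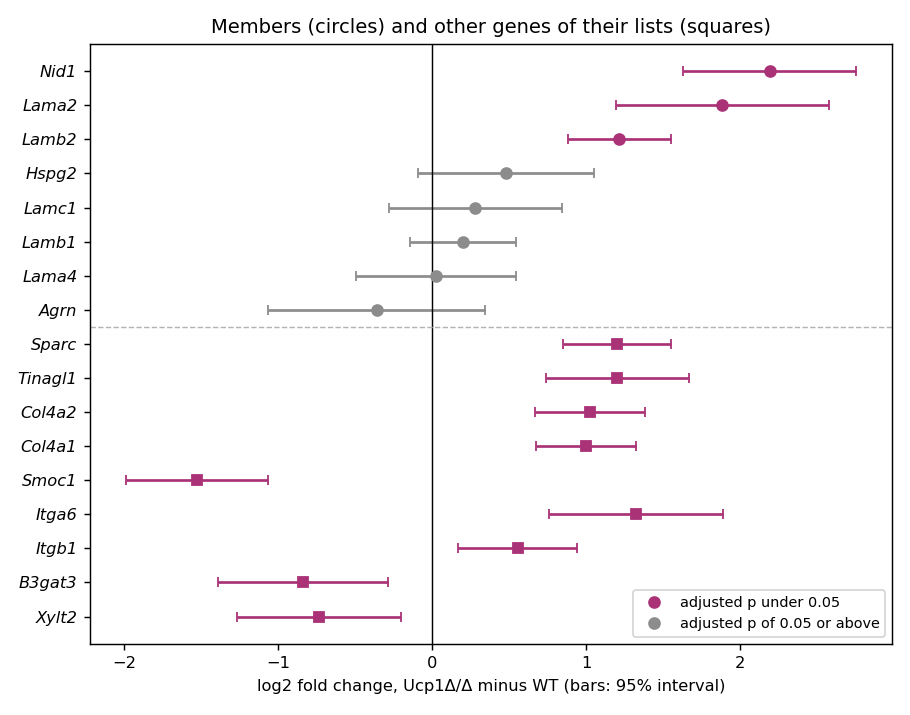
Log2FC of Ucp1Δ/Δ against WT mice for the 8 tested genes (circles) and for the named genes of the wider pathway (squares), with 95% intervals from edgeR's quasi-likelihood fit on 4 mice each. The intervals of Nid1, Lama2 and Lamb2 lie above 0, those of the other 5 circles cross 0, and Smoc1 stands at the lower end with -1.53.

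Promoter letters are shown for the 3 genes that rose and for Lamb1, the paralog of Lamb2 that did not pass the test, because the pairs can then be read side by side. They come from RefSeq windows on GRCm38.p6, which were found for 7 of the 10 genes (8 windows), and they are trimmed where they run into an annotated exon and printed 5′ to 3′ on the strand of the gene. Capitals mark GGGCGG or its reverse complement, the GC box bound by Sp-family factors.
Nid1, chr13:13437352-13437550, plus strand: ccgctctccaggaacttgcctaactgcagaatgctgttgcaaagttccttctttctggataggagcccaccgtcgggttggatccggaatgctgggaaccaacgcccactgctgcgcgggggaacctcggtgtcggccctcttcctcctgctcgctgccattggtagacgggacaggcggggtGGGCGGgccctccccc
Lama2, chr10:27616943-27617192, minus strand: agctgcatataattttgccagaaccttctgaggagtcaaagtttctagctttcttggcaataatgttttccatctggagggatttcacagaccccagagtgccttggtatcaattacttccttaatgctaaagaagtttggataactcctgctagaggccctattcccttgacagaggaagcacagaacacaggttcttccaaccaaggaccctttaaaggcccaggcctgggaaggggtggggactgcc
Lamb2, chr9:108479612-108479735, plus strand: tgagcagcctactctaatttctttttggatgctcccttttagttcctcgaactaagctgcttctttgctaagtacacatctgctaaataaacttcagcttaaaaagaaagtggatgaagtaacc
Lamb1, chr12:31265043-31265233, plus strand: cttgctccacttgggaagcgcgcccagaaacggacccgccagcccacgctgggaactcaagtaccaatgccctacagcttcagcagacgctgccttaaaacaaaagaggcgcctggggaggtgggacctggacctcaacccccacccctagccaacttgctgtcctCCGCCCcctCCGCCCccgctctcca
The RefSeq start of Lama2 lies inside the annotated gene, downstream of its outermost start. In the 250 bases before the RefSeq start, the GC box occurred 1 time for Nid1, 2 times for Lamb1 and 0 times for Lama2 and Lamb2, counted on both strands, and 32.7% of 32851 promoters of that length held at least 1. CG pairs numbered 16 for Nid1, 14 for Lamb1, 3 for Lamb2 and 0 for Lama2, beside a median of 6 over all promoters. Thus the genes that rose shared neither of these features. Neither TATAAA (12.4% of all promoters) nor TGANTCA, the AP-1 letters (6.75%), was found on either strand in any of the 8 windows, which says only that these letters are not there.

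Ratios of genes within a mouse do not depend on the scaling of the library. The log2 ratio of Lamb2 to Lamb1 counts was -1.75, -1.55, -1.85 and -2.03 in WT and -0.72, -0.80, -0.81 and -0.84 in Ucp1Δ/Δ mice, a difference of 1.002. The ratio of Lama2 to Lama4 was higher by 1.74 and that of Nid1 to Lamc1 by 1.94, and in all 3 ratios every Ucp1Δ/Δ mouse was above every WT mouse. Each of these 3 had p = 0.0286 in a two-sided exact permutation test, the smallest that 4 against 4 mice allow, and 0.0667 after adjustment over the 7 ratios tested, so none passed. These 3 ratios set the genes called higher (Lamb2, Lama2 and Nid1) against genes that were not called. They use the same counts as those calls, and their genes were chosen with earlier results known. They therefore restate the calls without dependence on scaling and add no separate support. The ratios of Lama4 to Lama5 (difference -1.71), Nid2 to Nid1 (-1.69), Agrn to Hspg2 (-0.86) and Lamc1 to Col4a1 (-0.69) overlapped between genotypes, with adjusted p from 0.12 to 0.143 in the exact permutation test. With nothing added to each count, instead of 0.5, the difference was -2.035 for Lama4 to Lama5 and -1.545 for Nid2 to Nid1. With 2 added, these differences were -1.183 and -1.892. Both ratios rest on few counts, in WT 1, 2, 1 and 13 for Lama5 and 2, 6, 5 and 1 for Nid2.

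**Figure D3:**
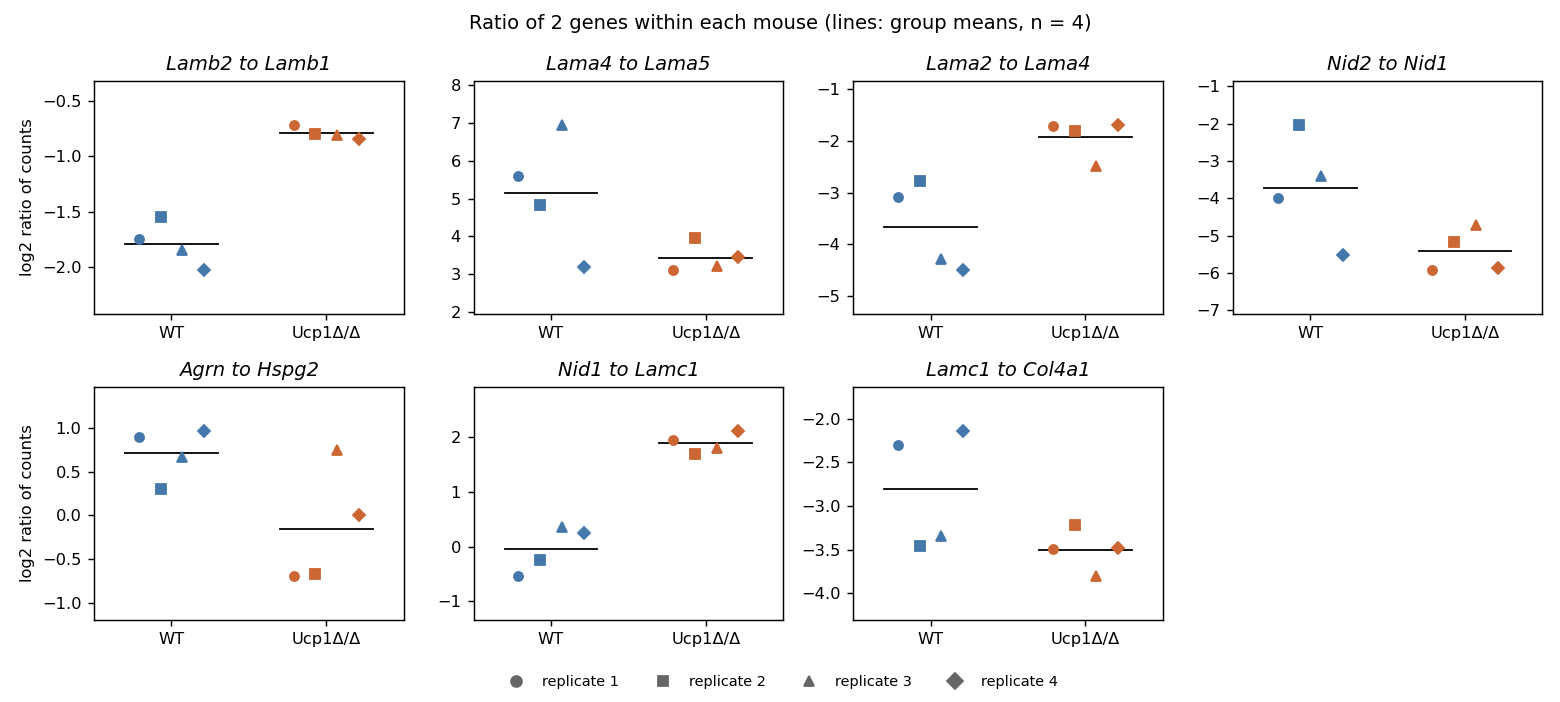
Log2 ratio of the counts of 2 genes within each mouse, with 0.5 added to each count, for the 7 ratios tested. Points are mice (4 WT, 4 Ucp1Δ/Δ), lines the group means, and the axes are cropped to the data. The genotypes are separate for Lamb2 to Lamb1, Lama2 to Lama4 and Nid1 to Lamc1.

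The laminin chains Lama1, Lama3, Lamb3 and Lamc3, most of which are typical of epithelia or of the embryo, had low counts and none passed the filter. Lama1 had 0 counts in all 8 mice and Lama3 only 2 counts, both in Ucp1Δ/Δ replicate 4. Lamb3 had 1 to 13 counts in WT and 0 to 4 in Ucp1Δ/Δ mice, and Lamc3 had 1 to 6 and 5 to 12.

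Among 24 other listed components of the basement membrane, 13 were tested, 8 of which were higher and 1 lower, beside 13.3% and 7.63% of all tested genes. Their median log2FC was 0.97. Of the 13, 6 reached the minimum of the filter in every Ucp1Δ/Δ mouse but not in every WT mouse, 3 of the 8 higher genes among them, so that this count and median depend in part on the filter. The list, like the members, was also chosen with earlier results of these data known. Both chains of the common type IV collagen rose, Col4a1 from 145 ± 12.5 to 290 ± 13.2 CPM (log2FC 0.997, adjusted p = 0.000232) and Col4a2 from 84.9 ± 11.0 to 172 ± 20.1 CPM (1.02, adjusted p = 0.000413). Sparc, a matricellular protein that binds collagen, rose from 878 ± 110 to 2016 ± 212 CPM (log2FC 1.20, adjusted p = 8.92e-05), and Tinagl1, a matrix protein that binds laminin and integrins, rose by 1.20 (adjusted p = 0.000962). Smoc1, a calcium-binding relative of Sparc, fell from 25.6 ± 1.01 to 8.80 ± 2.06 CPM (log2FC -1.53, adjusted p = 0.000112). The count of higher genes was 6 with DESeq2 and 5 without the 4 mice richest in muscle markers.

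Of 15 listed receptors for laminin and agrin, 9 were tested and 2 rose, beside 13.3% of all tested genes, a count that rests on few genes (median log2FC 0.43). Itga6, the α6 chain of a laminin-binding integrin, rose from 13.5 ± 6.07 to 33.2 ± 4.22 CPM (log2FC 1.32, SE 0.27, adjusted p = 0.00206), and its partner Itgb1 from 86.4 ± 19.3 to 127 ± 7.75 CPM (0.55, SE 0.18, adjusted p = 0.0408). The call of Itgb1 was lost in 10 of 19 alternatives, among them the size factors of DESeq2 (adjusted p = 0.0564), and 1 of the 9 was higher without the 4 mice richest in muscle markers. None of the 9 fell, also at an unadjusted p under 0.05 (0 genes) and in DESeq2 (0 genes).

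The complex that anchors laminin to the cytoskeleton and the enzymes that build its sugar-bearing receptor showed no gene past the test. Of 14 genes of the dystrophin-associated complex, 10 were tested with a median log2FC of 0.25, and 0 passed in edgeR or in DESeq2, with 2 higher at an unadjusted p under 0.05. Of 13 dystroglycan glycosylation enzymes, 8 were tested with a median log2FC of -0.26, and again 0 passed in edgeR or DESeq2, with 1 higher at an unadjusted p under 0.05. Of 18 enzymes of heparan sulfate synthesis and trimming, 11 were tested and 2 fell, beside 7.63% of all tested genes lower and 21.0% changed in either direction, and the median log2FC was 0.21. These were B3gat3, which completes the linker on which the chain is built (16.8 ± 5.60 to 9.48 ± 1.27 CPM, log2FC -0.84, adjusted p = 0.0313), and Xylt2, which starts it (10.7 ± 0.943 to 6.40 ± 0.827 CPM, log2FC -0.74, adjusted p = 0.0471). Neither call was stable: that of B3gat3 was lost in 8 of 19 alternatives, 5 of them with 1 mouse left out, and that of Xylt2 in 14 of 19, all 8 with 1 mouse left out among them. With the muscle marker level as a covariate 0 of the 11 fell (edgeR adjusted p = 0.0577 for B3gat3 and 0.0759 for Xylt2). None of the 11 rose in edgeR, at an unadjusted p under 0.05 or in DESeq2 (0 genes each).

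Macrophage and stromal progenitor markers were higher in Ucp1Δ/Δ mice. The summed level of 8 macrophage markers was 96.8 to 147 CPM in WT and 936 to 1501 CPM in Ucp1Δ/Δ mice, and all 7 that were tested rose, 3 of which reached the minimum of the filter in every Ucp1Δ/Δ mouse but not in every WT mouse. That of 8 stromal progenitor markers was 95.5 to 126 against 233 to 402 CPM, with 6 of 7 tested genes higher (3 without the 4 mice richest in muscle markers), 3 of the 6 past the minimum in that same way. Mural cell markers summed to 198 to 294 against 308 to 352 CPM (2 of 7 tested genes higher, and 1 gene in DESeq2). Endothelial markers summed to 274 to 338 against 339 to 403 CPM (1 of 10 higher). Of all tested genes 13.3% were higher, which the endothelial count was near, and the mural count rests on few genes. The 4 sums did not overlap between genotypes, by only 337.9 against 339.3 CPM for the endothelial one, and the part of these cells in the levels of Nid1, Lama2 and Lamb2 was not tested. The sum of Schwann cell markers, 120 to 175 against 676 to 893 CPM, was made up mainly of S100b (log2FC 2.65, adjusted p = 6.47e-07), a gene picked after its values were seen, and the other 7 summed to 26.5 to 44.4 against 28.3 to 55.7 CPM. Of the 8 brown adipocyte markers, 1 was higher and 4 were lower, beside 13.3% and 7.63% of all tested genes. Without the 4 mice richest in muscle markers, 0 were higher and 4 lower.

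Skeletal muscle markers differed by mouse rather than genotype, with sums of 1559, 110, 23.0 and 744 CPM in WT and 321, 2028, 68.5 and 945 CPM in Ucp1Δ/Δ mice, and 0 of 8 tested genes passed in edgeR or DESeq2 (0 also at an unadjusted p under 0.05). With this level as a covariate, Nid1 had a log2FC of 2.07 (adjusted p = 1.58e-06) and Lamb2 of 1.21 (adjusted p = 3.59e-05). None of the markers of these 7 cell types was at 0 in all mice.

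**Figure D4:**
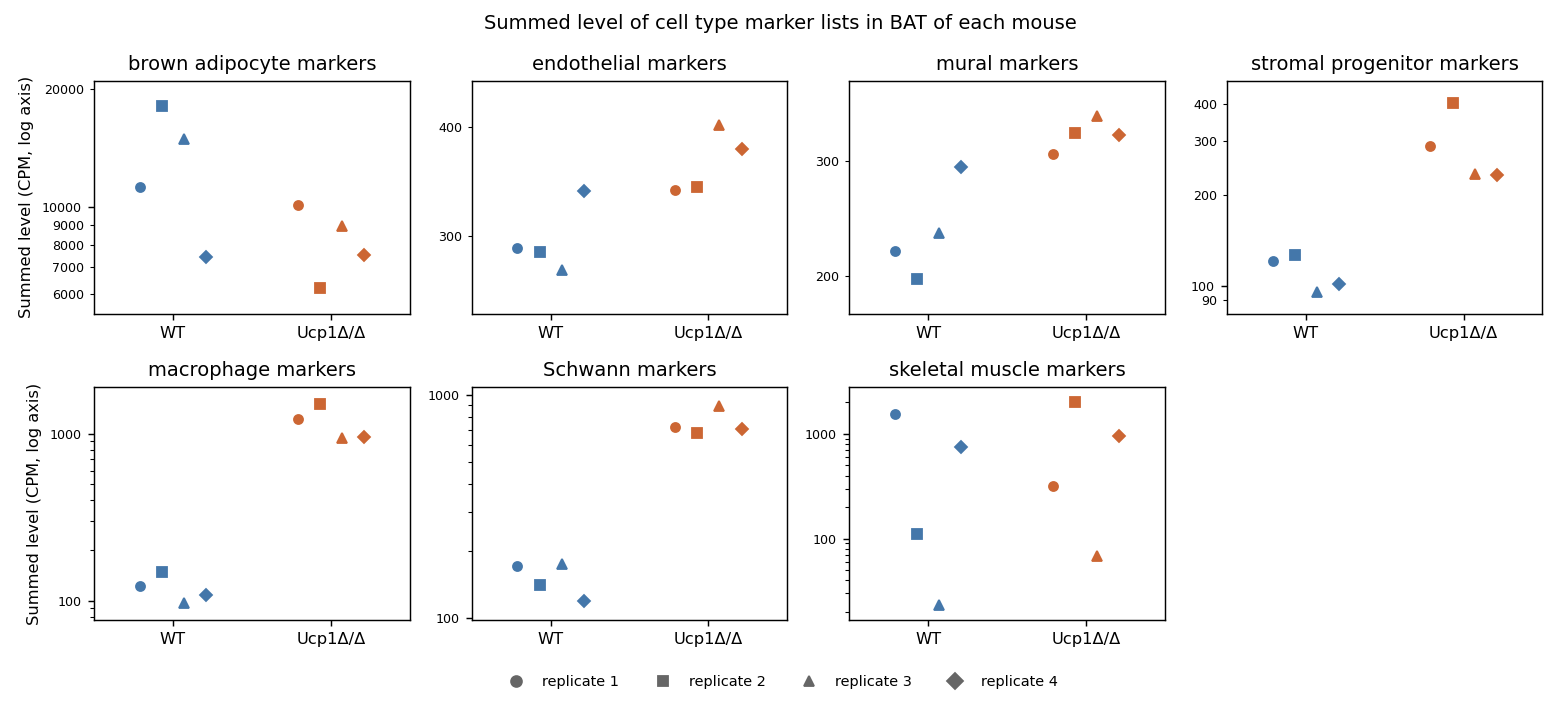
Summed level of the marker genes of each cell type in each mouse, in CPM on a log axis. Points are mice (4 WT, 4 Ucp1Δ/Δ). Macrophage and stromal progenitor markers are higher in every Ucp1Δ/Δ mouse, while skeletal muscle markers spread from 23.0 to 1559 CPM in WT and from 68.5 to 2028 CPM in Ucp1Δ/Δ mice.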

How the data were processed

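Total RNA of BAT from 8 mice was sequenced with a digital mRNA-seq service. The authors deposited whole-number counts per Ensembl gene without normalization, and deposited log2 values, in which counts had been scaled by a factor for each mouse and 1 was added before taking the log. The methods of the study name bbduk, STAR, mm10 and HTseq-counts, whereas the submitters' processing notes name Trimmomatic, HISAT2, DESeq2, GRCm38 and mm10. The strand setting and annotation release were not given in the sources used here.

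Symbols were matched to GENCODE for mm10 (30934 of 31053 identifiers). Counts were analysed in R 4.3.3 with edgeR 4.0.16, with filterByExpr at its defaults (minimum count 10, minimum total 15), TMM scaling and the quasi-likelihood test on genotype, tested on simulated data first. CPM used TMM-scaled libraries, log2 CPM a prior count of 2. DESeq2 1.42.0 and limma 3.58.1 served as alternatives, beside other scalings, filters, a replicate block and leaving out each mouse. After the data were seen, 2 more were added: skeletal muscle marker level as a covariate, and the fit without the 4 mice highest in it. A ratio used counts with 0.5 added and 70 assignments of mice.

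The members and gene lists were chosen with earlier results of these data known. The genes named were Pnpla2, the 10 members, other laminin chains (1 item is not reported here) and, in each pathway list, up to 4 genes per direction with the smallest adjusted p under 0.05. S100b was named after its values were seen. Samples were grouped by the genotype and title in the labels. Cage, litter and batch of each mouse were not given in the sources used here, so p-values measure the spread between these mice. Same-genotype libraries differed by more than sampling noise (chi-square per degree of freedom 4.69 to 23.2). The floor of 3 counts was 0.963 to 1.49 CPM and covers counting error only. Levels of different genes were not compared, since they were not per length. Reads were not reprocessed, and a sample sheet without measurements was not used.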

Additional observations from a re-analysis of the deposited data

Results flagged for a closer look

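Within groups of 4 mice, the highest or lowest value was set against the gap to its nearest neighbour as a share of the range (critical value of Dixon at 95%). Of 34 groups examined, 2 passed, where chance gives about 1 in 20, or 1.7 groups. Lama5 in Ucp1Δ/Δ replicate 3 had a log2 CPM of 2.64, whereas the other 3 mice lay between 2.22 and 2.28, a gap of 0.868 of the range. The raw counts of Lama5 in the 4 mice were 11, 13, 13 and 9. Replicates 2 and 3 thus had the same count and differed in library size only. The log2 ratio of Lama2 to Lama4 in Ucp1Δ/Δ replicate 3 was -2.48 against -1.81 to -1.68, a gap of 0.844 of the range.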

How the results depend on the processing

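Of the 8 tested members, 6 kept their direction and their side of the threshold under every alternative run. The exceptions were Lama2, which lost its call without the 4 mice highest in skeletal muscle markers (2 against 2), and Lama4, which never passed and whose log2FC was -0.017 with the size factors of DESeq2, -0.017 in DESeq2, -0.0099 in limma voom, -0.0040 with at least 1 count in any mouse, -0.11 without those 4 mice, and -0.14 to 0.16 when 1 mouse was left out. With 1 mouse left out, the log2FC was 1.98 to 2.49 for Nid1, 1.67 to 2.03 for Lama2 and 1.18 to 1.25 for Lamb2. The number of members higher was 3 throughout, except 2 with at least 10 counts in every mouse, which removed Lama2, and without the 4 mice the 3 were Nid1, Lamb2 and Lama5. In that last fit Lama5 passed the filter through the Ucp1Δ/Δ mice alone. No member was lower under any alternative.

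Over all genes, 1191 were higher and 681 lower. Scaling by total counts alone gave 1478 and 404 and shifted the median over all tested genes to a log2FC of 0.13 from -0.0087, and at least 10 counts in every mouse gave 746 and 449 (6928 genes tested). Without the 4 mice highest in muscle markers the counts were 760 and 265, and with a log2FC above 1 also required, 227 genes were lower. Leaving out 1 mouse gave 945 to 1304 higher and 400 to 851 lower, with 400 without Ucp1Δ/Δ replicate 2. Of 11 other named genes, 8 kept their calls throughout, and the 32 losses among 209 alternatives fell to Itgb1, B3gat3 and Xylt2.

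Without WT replicate 4, the adjusted exact permutation p was 0.04 for Lamb2 to Lamb1 (0.92), Lama4 to Lama5 (-2.36), Lama2 to Lama4 (1.46), Nid2 to Nid1 (-2.28) and Nid1 to Lamc1 (2.04). With 1 mouse left out, the differences were 0.92 to 1.08, -2.36 to -1.11, 1.46 to 2.04, -2.28 to -1.12 and 1.77 to 2.07 in the same order, -1.16 to -0.68 for Agrn to Hspg2 and -0.91 to -0.46 for Lamc1 to Col4a1. The smallest unadjusted exact permutation p is 0.0286 for 3 or 4 against 4 mice. Without WT replicate 4 more ratios were at it, so the adjusted p fell, though Lamb2 to Lamb1 was 1.002 with all mice. The WT mice left had 1, 2 and 1 counts of Lama5 (floor 3) and 2, 6 and 5 of Nid2, too few for a call. Why the differences moved was not tested.

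Same-numbered mice were different animals whose deviations correlated by -0.0873, -0.196, 0.304 and 0.241. Differently numbered mice were not correlated for reference, so these values cannot decide whether the numbers pair the mice. With the replicate block, 1138 genes were higher and 581 lower, and Nid1 (2.22), Lama2 (1.84) and Lamb2 (1.21) kept their calls, while Itgb1, B3gat3 and Xylt2 lost theirs (adjusted p = 0.0545, 0.0511 and 0.0833). For ratios, sign flips of 4 pairs allow no p under 0.125. Depth limits Lama5, Nid2 and the other laminin chains, for which no call could be made at the default filter.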
